A study of Mus musculus with 24 samples.

Results

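Microglia of 12-month DBA/2J mouse retinas graded moderate were set against those of retinas graded mild or severe, taken as 1 group. The retinas were chosen by strain, age and the grade in their labels, and they are 10 of the 24 retinas of the series. The 4 moderate retinas came from 3 animals (both eyes of animal 2, the right eye of animal 1 and the left eye of animal 5). The 6 others came from 4 animals: severe were the left eye of animal 1 and both eyes of animal 3, and mild were both eyes of animal 4 and the right eye of animal 5. The label of the mild retinas adds NOE, which is not spelled out there. All 10 retinas carry the strain's genotype, Gpnmb-/- Tyrp1b-/-, so mild retinas are not an unaffected control. Eyes of 1 animal with the same grade were summed, which gave 3 moderate, 2 severe and 2 mild sums. Pooling both ends of the scale asks whether the middle grade stood apart, a pattern that a straight line through the grades cannot show.

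DBA/2J mice develop an iris disease with age that raises eye pressure and damages the optic nerve, and animals and eyes of the same age differ in how far the damage has gone. Microglia, the resident macrophages of nervous tissue, hold a homeostatic programme under TGF-beta and the transcription factor Sall1, with the purine receptor P2ry12 as a typical product. Near injured neurons they can lower that programme and raise genes such as Apoe and Spp1, the MGnD or disease-associated state. A sorted pool can also hold RNA of other cells, above all of rods, the most numerous cells of the mouse retina, and of border macrophages, which sit along vessels and at the ciliary body.

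Cells were sorted as CD11b+, Fcrls+ and without Ly6c, and 1 library was made per retina. Totals of the 10 libraries ran from 1706745 to 20081047 counts, with 10693 to 15037 genes detected. The 2 smallest were the left eye of mild animal 4 (1706745) and the right eye of moderate animal 1 (4983359). Totals and genes detected of the sums did not separate the groups (two-sided exact permutation p = 0.914 and 0.857). The mitochondrial share was 2.46 ± 0.47% (SD, n = 3) in moderate and 1.67 ± 0.30% (SD, n = 4) in mild or severe sums (exact permutation p = 0.114, where 0.0571 is the smallest that 3 against 4 allows). Of the genotype's genes, Gpnmb and Tyrp1 had 0 counts in all 10 retinas, which allows up to 0.149 to 1.76 CPM (counts scaled to 1e6 per library), for counting error only. Gpnmb was also at 0 in 8 of the 9 retinas of the Gpnmb+ control strain and Tyrp1 in all 24 retinas, so these zeros do not check the genotype. The microglial receptors Csf1r and P2ry12 were present in every retina, at 2765 to 8091 and 852 to 2992 CPM. Ly6c2 had 0 counts in all 10. Fcrls itself ran from 0 to 106 CPM, with 0 in the left eye of moderate animal 2 and the right eye of mild animal 4.

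No gene passed an adjusted p of 0.05 in edgeR's quasi-likelihood test, so none of 12019 genes (0%) was called, and the smallest adjusted p was 0.729. At an unadjusted p under 0.05, 194 genes were higher in moderate sums, 1.61% of those tested, and 292 were lower, 2.43%. Together that is 4.04% of the genes tested, fewer than this threshold itself passes where no gene differs. With the animal as a block, which pairs the eyes of animals 1 and 5, 315 genes were higher (2.62%) and 271 lower (2.25%), again with none called and a smallest adjusted p of 0.264. Sums that did not overlap were found for 416 genes above (3.46%) and 427 below (3.55%). Retina by retina, 81 of 11227 genes had all 4 moderate retinas above the 6 others (0.721%), and 64 had all 4 below (0.57%). DESeq2, on the same sums, called 38 genes higher (0.316%) and 32 lower (0.266%). Its adjusted p-values are printed below only for some genes that it called, and edgeR called none of them. Many genes named below were not called by DESeq2 either, among them P2ry12 (0.26), Sall1 (0.32), Gpr34 (0.22), Eno1 (0.064) and Spp1 (0.52). The values that follow therefore describe these libraries: "higher" and "lower" at the unadjusted threshold are not calls, and lists are described by counts and medians. The median log2 difference of all genes was -0.05. In such pooled samples fewer cells of a type and less RNA per cell cannot be told apart. CPM of a sum are scaled by TMM, and CPM of a retina are scaled by its library total.

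**Figure D1:**
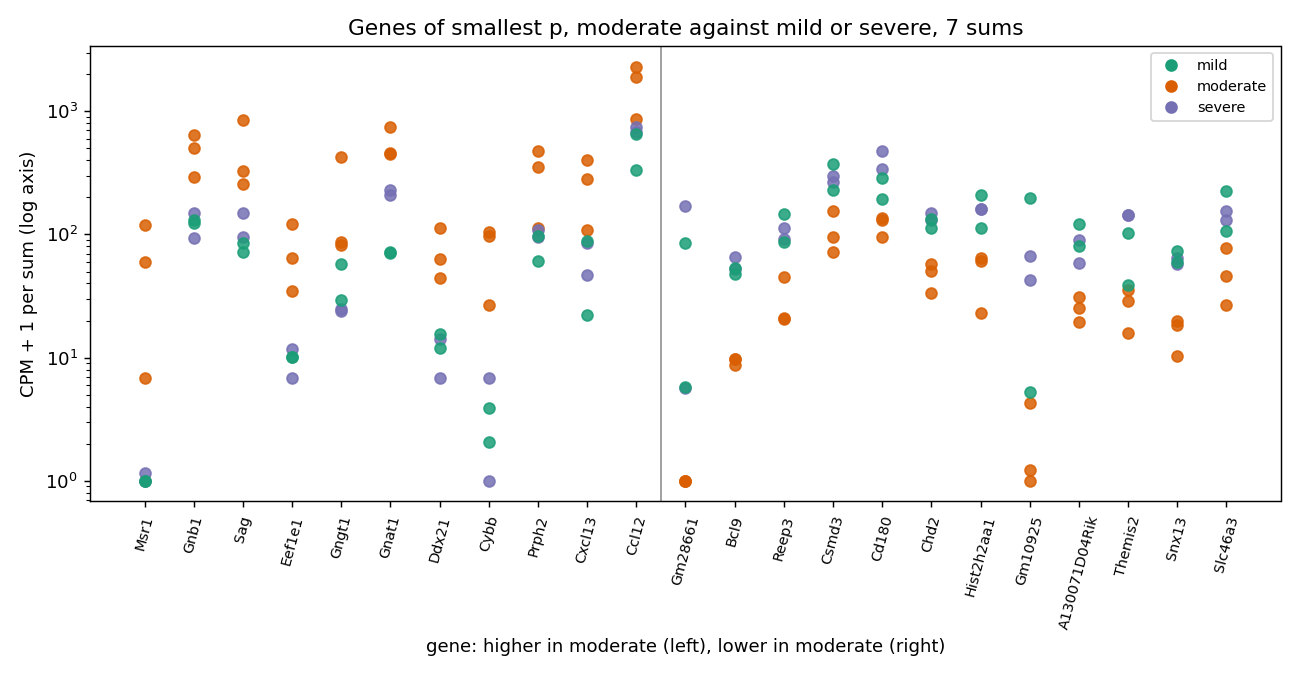
CPM + 1 (log axis) of each of the 7 sums for genes of smallest p at an average log2 CPM of 4 or more, up to 12 per direction, each point 1 sum coloured by grade. Gnb1, Sag, Gngt1, Gnat1 and Prph2, all made by rods, are among those on the left, and Sag runs from 257 to 852 CPM in moderate sums against 70.8 to 148 in the others.

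Of the 39 gene lists, that of rod genes had the most members higher in moderate sums. All 19 markers passed the filter on low counts and all 19 had a positive log2 difference, with a median of 2.74. Of them, 15 were higher at the unadjusted threshold, against 1.61% of all genes tested, and 13 had no overlap between sums, against 3.46%. Sag, the arrestin that ends the light response (chr1:87803680-87845158, GRCm38), measured 852, 257 and 325 CPM in moderate animals 1, 2 and 5. It measured 148 and 94.4 in severe animals 1 and 3, and 70.8 and 84.8 in mild animals 4 and 5. The moderate sums lay above all others, with a log2 difference of 2.26 ± 0.47 (SE). The adjusted p was 0.0015 in DESeq2 and 0.998 in edgeR. Other genes follow in the same order. Gnat1, the rod transducin alpha subunit, was at 462, 451 and 743 CPM against 229, 206, 70.0 and 70.8. Gngt1, its gamma subunit, was at 422, 81.5 and 86.3 CPM against 22.8, 23.7, 56.9 and 28.3. Gnb1, the beta subunit, which many cell types make, was at 642, 294 and 506 CPM against 92.0, 150, 130 and 124. All parts of the rod's transducin thus had sums that did not overlap, with log2 differences of 1.94 ± 0.48, 2.58 ± 0.64 and 1.96 ± 0.36. Prph2, a structural protein of the outer segment discs, was at 472, 112 and 352 CPM against 108, 94.9, 60.4 and 96.1. Its moderate sum of animal 2 lay just above the highest of the others. The rod transcription factor Nr2e3 was at 70.2, 53.2 and 71.3 CPM against 0.343, 10.8, 2.25 and 0.507.

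The upstream sequences of Sag and Gngt1 are shown because both lay higher in the sums and hold a motif of CRX, the homeobox factor of photoreceptors. The pair was taken from the genes that hold the motif, so its presence in both is not a result. The letters searched were TAATCC on both strands. In the RefSeq table (GRCm38.p6), 5 of the 12 rod promoters that matched hold it (Abca4, Cnga1, Gngt1, Guca1a and Sag), against 7.06% of 32851 promoters, each of 300 bases around a start site. Printed are the 250 bases before the start site, 5′ to 3′, with the motif in capitals, for Sag at chr1:87803430-87803679 and Gngt1 at chr6:3993758-3994007, both on the plus strand.
Sag: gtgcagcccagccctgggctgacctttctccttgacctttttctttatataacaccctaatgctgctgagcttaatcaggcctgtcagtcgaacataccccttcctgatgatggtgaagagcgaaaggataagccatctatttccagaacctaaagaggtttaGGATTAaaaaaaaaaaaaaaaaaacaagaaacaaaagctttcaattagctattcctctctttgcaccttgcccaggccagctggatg
Gngt1: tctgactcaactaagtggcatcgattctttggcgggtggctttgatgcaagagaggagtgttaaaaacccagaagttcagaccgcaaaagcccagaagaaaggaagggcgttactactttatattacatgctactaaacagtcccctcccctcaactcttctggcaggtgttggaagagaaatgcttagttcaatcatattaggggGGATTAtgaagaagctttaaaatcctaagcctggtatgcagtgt
In both the motif reads on the opposite strand, starting 87 bases before the start site in Sag and 44 in Gngt1. A match is a description of letters, and binding was not measured here.

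Retina by retina, the rod signal was not shared by all 4 moderate eyes. The summed level of the 19 markers was 6640 CPM in moderate animal 1, 2972 in the right and 325 in the left eye of animal 2, and 4241 in animal 5. The left eye of animal 2 was the lowest of all 10 retinas, and the other 3 moderate eyes were the highest. Severe retinas measured 915 (animal 1), 1834 and 772 (animal 3), and mild retinas 458 and 854 (animal 4) and 699 (animal 5). Sag differed likewise within animal 2, with 77.4 CPM in its left eye against 330 in its right eye. No rod gene had all 4 moderate retinas above the 6 others, where 0.721% of all genes did. Summing the eyes of animal 2 thus joined 1 high and 1 low retina. Without that left eye the list's median was 2.84, with 15 members higher. Without the 2 smallest libraries, among them the highest rod retina, the median was 2.06 with 10 members higher, and without the moderate sum of animal 1 it was 2.05 with 9. Leaving out both sums of animal 1 left 7. Few markers of other retinal neurons had enough counts to be tested. Summed ganglion cell markers stayed between 0 and 12 CPM per retina with none of 12 tested, cone markers between 20 and 195 CPM with 1 of 10 tested, and bipolar, amacrine and horizontal markers between 0 and 28 CPM with 2 of 16 tested. In none of these sums were the moderate retinas apart from the others. Snap25, a gene of neurons in none of these lists and described further on, was higher in all 4 moderate eyes.

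**Figure D2:**
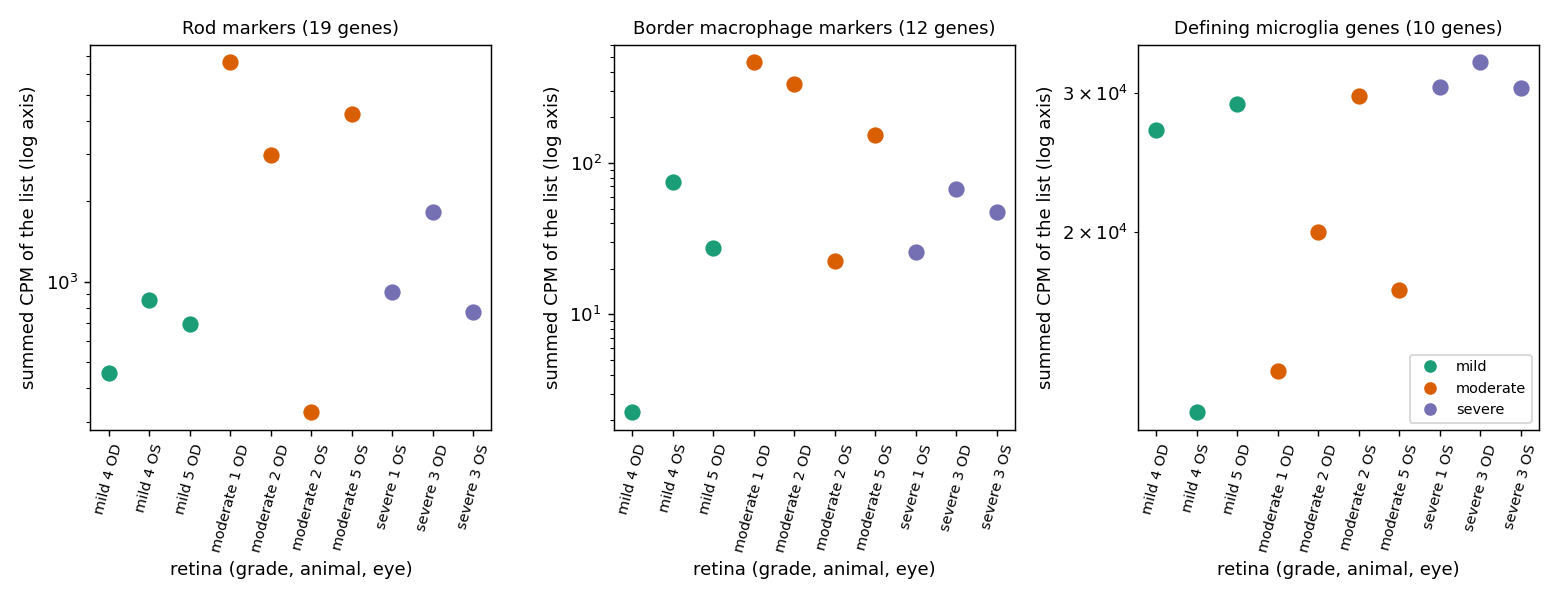
Summed CPM (log axes) of 3 marker lists in each of the 10 retinas, coloured by grade and named by grade, animal and eye. In rods and border macrophages 3 moderate retinas lie above all others, while the left eye of moderate animal 2 lies at 325 and 22 CPM, and the defining microglia genes are lowest in the left eye of mild animal 4 and the right eye of moderate animal 1.

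Genes of border and other macrophages had large differences, carried by the same 3 moderate eyes. Msr1, a scavenger receptor of macrophages (chr8:39581685-39642673), had 2430 counts in the moderate retinas and 5 in the 6 others. Its sums were 58.7, 5.83 and 119 CPM in moderate animals 1, 2 and 5 and at most 0.158 in the others, with a DESeq2 adjusted p of 1.4e-08. In the retinas it stood at 52.4, 8.37, 0 and 131 CPM, the 0 being the left eye of animal 2. Cybb, the catalytic subunit of the phagocyte NADPH oxidase, was at 96.8, 25.6 and 104 CPM against 0, 5.84, 1.06 and 2.90, and again at 0 in that eye. The C-type lectin receptors Clec4n and Clec12a, named after their values were seen, had 0 counts in all 6 mild or severe retinas. Against a floor of 3 counts over that group they were at least 567-fold and 305-fold higher in moderate, with 0 in the left eye of animal 2. Of 12 border macrophage markers, 6 passed the filter on low counts. A gene near 0 in the other sums passes it more easily where it is high in moderate, so no sign count or median of those 6 is given. Mrc1, the mannose receptor, was at 100, 60.5 and 19.5 CPM against 0 (severe animal 1), 11.2, 1.59 and 0. Ms4a7 was at 202, 6.63 and 70.2 CPM against 17, 2.59, 8.74 and 1.66, which overlaps. All 12 markers summed to 463, 334, 22 and 153 CPM in the moderate retinas (animal 1, right and left eye of animal 2, animal 5). The 6 others held 2 to 75 CPM. The 14 monocyte markers, of which 5 passed the filter, summed to 2344, 1427, 439.7 and 799 CPM in the moderate retinas in the same order and to 368 to 868 in the others, which overlaps. Lyz2, lysozyme, was at 2607, 1132 and 580 CPM against 706, 452, 783 and 274.

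The same 3 moderate eyes were thus the highest in both rod and border macrophage markers. The ranges of both are given here for every group of genes that follows. Rods held 325 to 6640 CPM in moderate and 458 to 1834 in the other retinas, and border macrophages 22 to 463 and 2 to 75. What part they have in the differences described next was not tested.

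Glycolysis genes had 14 of 19 tested members with a positive difference (median 0.77). Of these, 5 were higher at the unadjusted threshold (1.61% of all genes were), and 3 had all 4 moderate retinas above the 6 others (0.721% of all genes did). Eno1, enolase (chr4:150236721-150248879), measured 241 CPM in moderate animal 1, 202 and 161 in the right and left eye of animal 2, and 363 in animal 5. Severe retinas measured 117, 38.7 and 109 CPM, and mild retinas 107, 64.5 and 38.2. The lowest moderate eye was thus above the highest of the others, and the sums differed by 1.64 ± 0.45 on the log2 scale. Ldha, lactate dehydrogenase A, was at 439, 336, 250 and 429 CPM against 150 to 245 in the others, a narrow gap (1.15 ± 0.33). Gapdh was at 134, 110, 98.0 and 113 CPM against 35.2 to 63.5 (1.25 ± 0.40). Reads of Gapdh can be shared with its many processed copies in the genome. Aldoa and Pgam1 were higher at the threshold in the sums (0.93 ± 0.39 and 0.98 ± 0.43) and overlapped between retinas. Hk2, the hexokinase that opens the pathway, overlapped, with sums of 76.1, 116 and 95.5 CPM against 131, 91.9, 161 and 82.4. Without severe animal 1, mild animal 5 or the low-depth eye of mild animal 4, 3 members were higher in place of 5. Summed over the list, the moderate retinas held 2372, 2378, 1606 and 2934 CPM against 1144 to 1886 in the others, so the left eye of animal 2 lay within their range. The list's median was 1.08 for moderate minus mild and 0.55 for moderate minus severe.

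Other genes with this pattern in the retinas came from different functions, and were named by the rule on smallest p or after their values were seen. Eef1e1, a scaffold of the tRNA synthetase complex, was at 56.8, 31.1, 33.4 and 131 CPM in the moderate retinas against 0 to 31.6. It was above in all 4 eyes after TMM scaling, on which such counts rest. By library totals the right eye of moderate animal 2 (31.1 CPM) lay just below the left eye of mild animal 4 (31.6 CPM). Cryab, a small heat shock protein, was at 15.9, 12.9, 29.2 and 14.7 CPM, highest in the left eye of moderate animal 2, against 0 to 2.94. Complement C3 measured 40.5, 21.2, 40.0 and 23.4 CPM. The 6 others held 0 to 5.86 CPM, the highest being the left eye of mild animal 4. Its log2 difference was 5.28 ± 1.53 and its DESeq2 adjusted p 0.0027. It was 1 of 16 tested complement genes with this pattern, which 0.721% of all genes had. The list had a median of 0.15 and 2 members higher at the threshold, where 1.61% of all genes were. Cox5a, a subunit of cytochrome c oxidase, was at 75.5, 72.1, 58.8 and 101 CPM against 3.75 to 58.0. Snap25, a membrane fusion protein of synapses, was at 26.9, 22.1, 9.67 and 20.3 CPM against 0 to 0.548 (DESeq2 adjusted p = 0.00025). It is a gene of neurons and is not in the rod marker list used here. Which neurons its counts came from, rods included, was not tested.

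**Figure D3:**
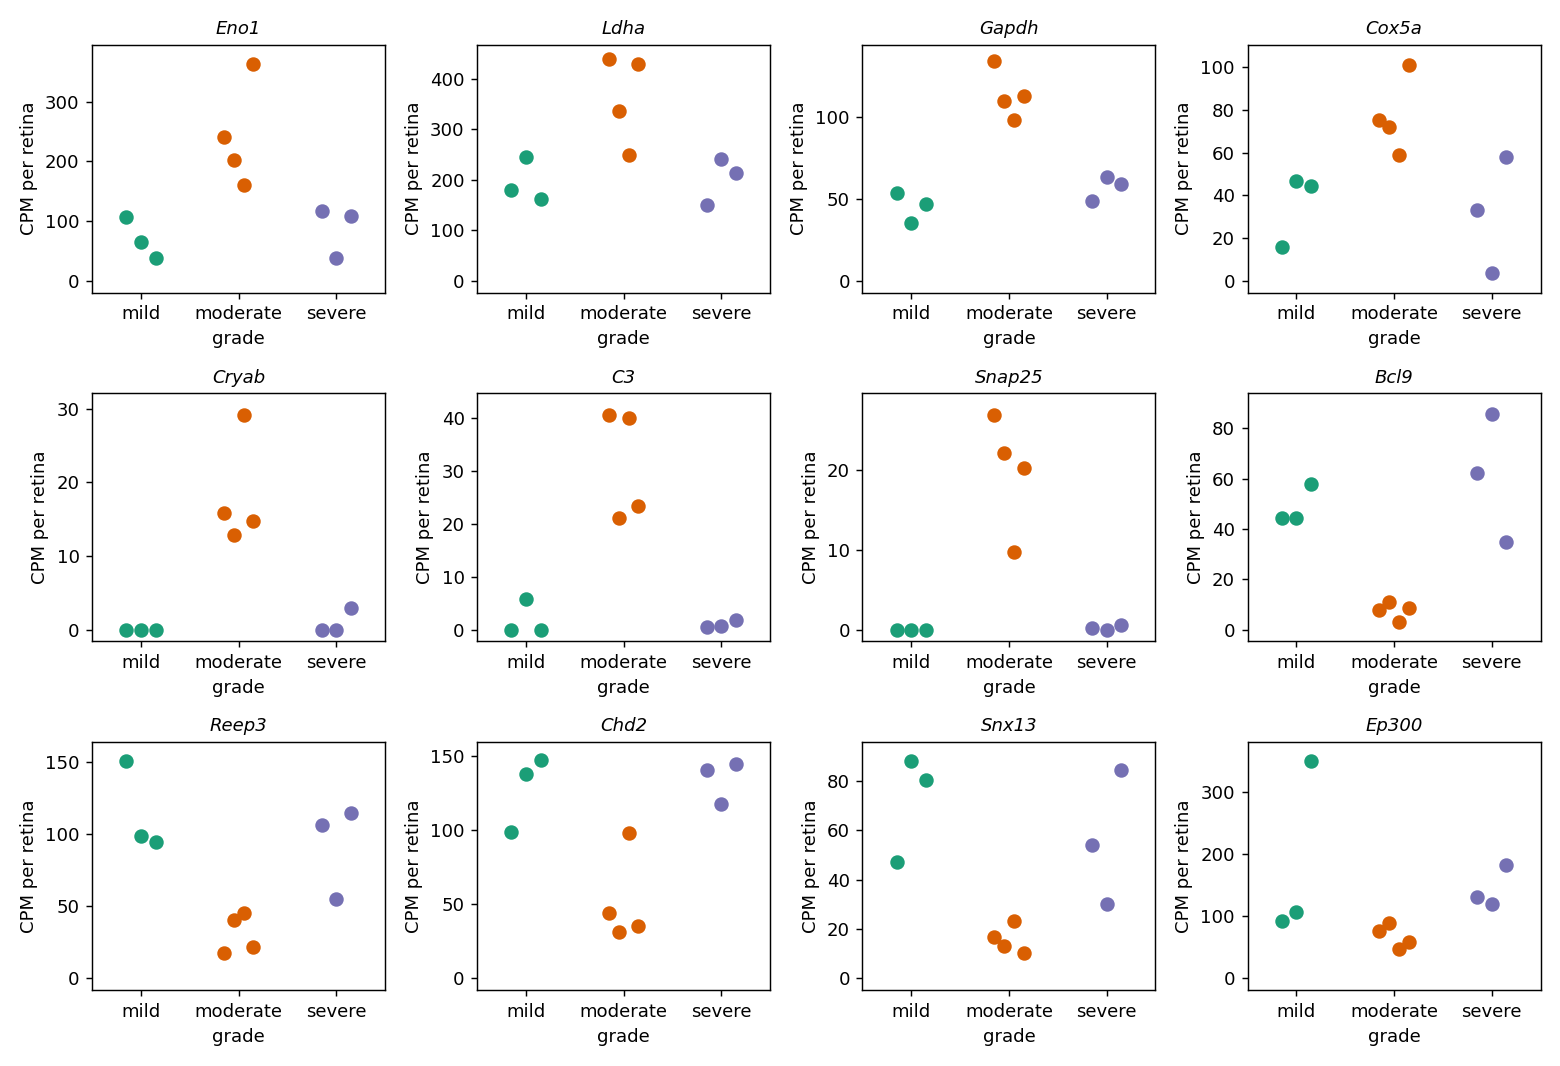
CPM of 12 genes in the 10 retinas, by grade, each point 1 retina. In the first 7 panels all 4 moderate retinas lie above the 6 others (C3 at 21.2 to 40.5 against 0 to 5.86 CPM), and in the last 5 they lie below (Bcl9 at 3.06 to 10.9 against 35 to 85.6 CPM).

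Genes of protein synthesis and respiration also lay higher in moderate sums, and were highest in the 2 smallest libraries. All 53 ribosomal protein genes had a positive difference, with a median of 0.81, and 11 were higher at the unadjusted threshold, against 1.61% of all genes tested. With the animal as a block, a fit with 1 residual degree of freedom, 34 were higher, against 2.62% of all genes. Rps18, of the small subunit, was at 740, 241 and 394 CPM against 216 (severe animal 1), 153, 255 and 112, so the groups overlapped. Rpl4, of the large subunit, was at 1039, 682 and 914 CPM against 596, 569, 534 and 313. Reads of ribosomal protein genes can be shared with their many pseudogenes. Summed over the list, the moderate retinas held 31013, 16800, 16057 and 20007 CPM. The left eye of mild animal 4 held 32684 CPM, the most of all, and the other 5 held 9772 to 15798. The 2 highest retinas were thus the 2 smallest libraries, 1 moderate and 1 mild. Without both the median was 0.49, still with 53 of 53 positive, and 3 members were higher. Leaving out 1 sum at a time moved the count from 11 to 1 without moderate animal 1 and to 36 without mild animal 4. It was 4 without severe animal 1, 2 without severe animal 3 or mild animal 5, 19 without moderate animal 2 and 16 without moderate animal 5.

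Nuclear genes of oxidative phosphorylation had 38 of 44 members positive, with a median of 0.72. Of them 5 were higher at the threshold, where 1.61% of all genes were. With the block, a fit with 1 residual degree of freedom, 9 were, where 2.62% of all genes were. Uqcrq, a subunit of complex III, was at 158, 40.2 and 62.6 CPM against 19.2, 17.7, 40.1 and 20.3. Its moderate sum of animal 2 and the sum of mild animal 4 nearly met. Cox8a, of complex IV, was at 430, 130 and 140 CPM against 69.5, 111, 113 and 75.1. Atp5b, of the ATP synthase, was at 489, 345 and 492 CPM against 285, 304, 264 and 180. Without moderate animal 1 the median was 0.29 with 2 members higher, and without mild animal 4 it was 1.08 with 9. The 13 mitochondrially encoded genes had a median of 0.69, with 12 positive and none higher at the threshold. With the block 2 were, against 2.62% of all genes. Their summed level in the retinas was 15804, 8774, 8058 and 10507 CPM in moderate, and 18112 CPM in the left eye of mild animal 4 beside 6747 to 8597 in the rest. Without moderate animal 1 the median was 0.13. Whether library size has a part in these lists was not tested beyond these values. Cell cycle genes had a median of 1.18 with none of 30 past the threshold. With the block 11 were higher, against 2.62% of all genes. Without moderate animal 1 the median was -0.06. That animal's eye held 2445 CPM of these genes, against 475 to 1615 in the other 9 retinas.

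**Figure D4:**
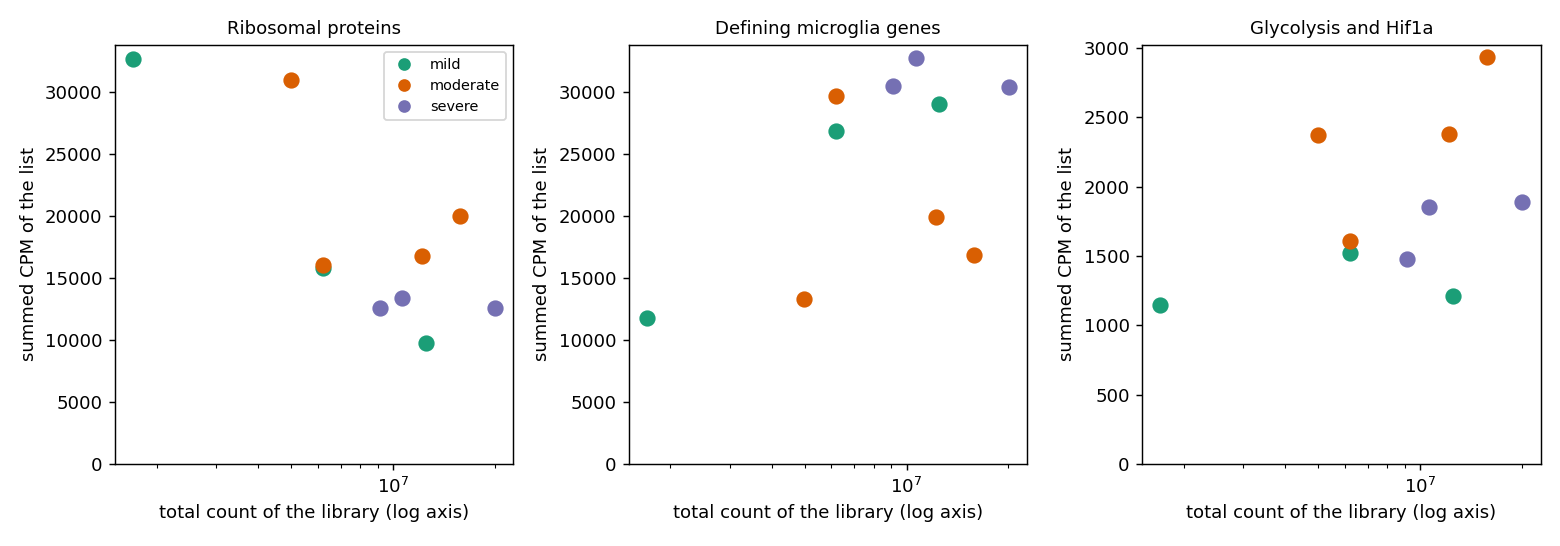
Summed CPM of 3 gene lists against the total count of the library (log axis), each point 1 of the 10 retinas coloured by grade. Ribosomal proteins are highest (31013 and 32684 CPM) and defining microglia genes lowest (13341 and 11822 CPM) in the 2 smallest libraries, while glycolysis is low in the smaller of them, a mild eye.

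Homeostatic microglia genes lay lower in moderate sums. Of 34 members, all tested, 30 had a negative difference (median -0.52). Of them 8 were lower at the unadjusted threshold, where 2.43% of all genes were, and 9 had sums that did not overlap, against 3.55%. P2ry12 (chr3:59216272-59262871), the purine receptor that steers microglial processes to injury, measured 1075, 1840 and 816 CPM in moderate animals 1, 2 and 5. It measured 3129 and 2652 in severe animals 1 and 3 and 1794 and 2700 in mild animals 4 and 5. The moderate sum of animal 2 thus lay above that of mild animal 4, and the difference was -1.05 ± 0.36. Sall1, the transcription factor that keeps microglial identity, was at 113, 209 and 78.0 CPM against 344, 251, 227 and 459 (-1.27 ± 0.44), without overlap. Gpr34, a lysophosphatidylserine receptor, was at 234, 1010 and 188 CPM against 1713, 1228, 1198 and 1397 (-1.54 ± 0.55). Crybb1 was at 1.80, 13.8 and 9.86 CPM against 93.1, 18.2, 49.0 and 42.8. Tmem119, Cx3cr1 and Csf1r gave -0.66 ± 0.35, -0.61 ± 0.38 and -0.52 ± 0.33, not past the threshold. Moderate animal 2 was the highest moderate sum for P2ry12, Sall1 and Gpr34. Its left eye was within the range of mild and severe eyes for these 3 genes, for P2ry12 and Gpr34 only through the low values of the left eye of mild animal 4. Summed over all 34 homeostatic genes, the moderate retinas held 70325, 57619, 74502 and 49032 CPM (animal 1, right and left eye of animal 2, animal 5). The 6 others held 76465 to 109677 CPM, so all 4 moderate eyes lay below them, the left eye of animal 2 included. Such a sum weighs abundant members most and does not follow each gene. Its highest value was in the left eye of mild animal 4, which had the lowest P2ry12 (852 CPM) and Gpr34 (445 CPM) of the 6. In the TMM-scaled sums the groups overlapped, at 44755 to 78864.5 CPM in moderate against 69916 to 97243.

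The 10 defining microglia genes summed to 13341, 19979, 29724 and 16908 CPM in the moderate retinas (animal 1, right and left eye of animal 2, animal 5). The left eye of mild animal 4 held 11822 and the other 5 held 26875 to 32791 CPM. The low retinas were thus the 3 moderate eyes with many rod counts and 1 mild eye of low depth with 854 CPM of rods. Without the 2 smallest libraries the median of the homeostatic list stayed at -0.52, with 7 members lower. Leaving out 1 sum moved the count of 8 to 1 without moderate animal 5, to 3 without severe animal 1, to 4 without severe animal 3 or mild animal 5, and to 5 without moderate animal 1. The median stayed between -0.64 and -0.44. Purine receptors and the ectonucleotidase had 8 of 9 tested members negative (median -0.47). At the threshold 3 were lower, where 2.43% of all genes were: P2ry12, P2ry13 and Entpd1, which cleaves extracellular ATP. All 3 are also in the homeostatic list and among its 8 lower members, so they are not a second result. No purine list member had moderate sums all below the others, where 3.55% of all genes did. P2ry13 was at 156, 480 and 349 CPM against 713, 824, 446 and 738, and Entpd1 at 68.2, 340 and 161 CPM against 484, 539, 292 and 508. None of the 3 passed the threshold without moderate animal 5, and 1 did without moderate animal 1, severe animal 1, severe animal 3 or mild animal 5. TGF-beta signalling genes had 13 of 17 negative (median -0.43), none past the threshold.

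Immediate early genes, which are induced within minutes of a stimulus, tissue dissociation among them, also lay lower in moderate sums. Of 22 tested members, 20 had a negative difference, with a median of -0.78. At the threshold 6 were lower, against 2.43% of all genes, and 4 had sums that did not overlap, against 3.55%. Fos measured 1248, 1175 and 502 CPM in moderate sums, against 2260, 1444, 2488 and 1622 (-1.0 ± 0.39), without overlap. Dusp1, a phosphatase that acts on MAP kinases, was at 397, 1021 and 322 CPM against 1523, 917, 1178 and 1611 (-1.17 ± 0.44), and severe animal 3 lay below moderate animal 2. Btg2, an antiproliferative gene, was at 624, 648 and 284 CPM against 1346, 1131, 640 and 1140 (-1.04 ± 0.39). Junb was at 768, 2258 and 959 CPM against 3230, 2723, 1802 and 3051 (-1.02 ± 0.42). Jun and Klf4 were the other members lower at the threshold (-0.83 ± 0.36 and -2.05 ± 0.84). Summed over the list, moderate retinas held 6321, 8979, 11481 and 4672 CPM. The left eye of mild animal 4 held 6050 and the other 5 held 11428 to 15328 CPM. The groups thus overlapped through the left eyes of moderate animal 2 and mild animal 4. Without moderate animal 5 or severe animal 1 only 1 member was lower, without moderate animal 1 it was 2 and without mild animal 5 it was 4, and the median stayed between -1.04 and -0.60.

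The upstream sequences of Dusp1 and Btg2 are shown because both hold a CRE, the palindrome TGACGTCA that CREB-family factors bind. Of 26 promoters of 19 immediate early genes in the RefSeq table, these 2 hold it, against 1.79% of all promoters of 300 bases. Printed are the 250 bases before the start site, with the motif in capitals, for Dusp1 at chr17:26508473-26508722 and Btg2 at chr1:134079156-134079405, both on the minus strand.
Dusp1: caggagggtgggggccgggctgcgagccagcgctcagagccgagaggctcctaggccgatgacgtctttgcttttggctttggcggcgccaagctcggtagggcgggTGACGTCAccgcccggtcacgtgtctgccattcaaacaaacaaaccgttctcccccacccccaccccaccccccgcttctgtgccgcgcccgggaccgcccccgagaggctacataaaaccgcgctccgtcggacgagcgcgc
Btg2: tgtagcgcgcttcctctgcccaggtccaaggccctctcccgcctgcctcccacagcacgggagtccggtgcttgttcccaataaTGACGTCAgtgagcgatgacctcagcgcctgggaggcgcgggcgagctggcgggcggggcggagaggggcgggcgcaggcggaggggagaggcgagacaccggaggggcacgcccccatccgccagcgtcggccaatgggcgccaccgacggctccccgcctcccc
The motif starts 143 bases before the start site in Dusp1 and 166 in Btg2. Being a palindrome, it reads the same on both strands.

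Most MGnD genes had a positive difference, and few passed the unadjusted threshold. Of 37 members 32 were tested, 22 with a positive difference (median 0.45), 3 higher (Spp1, Fth1 and Lyz2, where 1.61% of all genes were) and 1 lower (Serpine2, where 2.43% were). The median was 0.51 for moderate minus mild and 0.27 for moderate minus severe, and between the eyes of animals 1 and 5 it was 0.80 and 0.65. Apoe, the lipid carrier, was at 36978, 13251 and 7354 CPM in moderate sums against 16260, 7737, 3392 and 3647, so moderate animal 5 lay among the others (1.31 ± 0.63). Spp1, osteopontin, was at 307, 51.5 and 339 CPM against 18.4, 106, 25.9 and 128 (1.74 ± 0.75), and it had 0 counts in the left eye of moderate animal 2. Fth1, the ferritin heavy chain, was at 5197, 2297 and 1775 CPM against 1713, 1390, 2050 and 893 (1.03 ± 0.42). Serpine2, a protease inhibitor, was the member that lay lower, at 130, 406 and 139 CPM against 487, 437, 517 and 428 (-1.05 ± 0.43). Lgals3, Itgax and Axl gave 2.85 ± 1.83, 2.99 ± 1.55 and 0.70 ± 0.39, and Clec7a 1.09 ± 1.06, with 1.35 CPM in moderate animal 1 and 215 in animal 5. Trem2 overlapped throughout, at 1967, 1540 and 827 CPM against 1538, 1390, 2150 and 1296 (-0.14 ± 0.36). Without moderate animal 1 the median of the list was 0.15 with 1 member higher, without mild animal 5 it was 0.20 with 3, and without moderate animal 5 it was 0.59 with 6. Without mild animal 4, or without severe animal 1, 2 members were higher and none lower.

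Among other immune genes, 2 chemokines of the list of 15 tested were higher at the threshold, where 1.61% of all genes were. Ccl12, a ligand of Ccr2, was at 2304, 864 and 1909 CPM against 680, 747, 647 and 335 (1.49 ± 0.40; DESeq2 adjusted p = 0.03). In the retinas it overlapped, with 1509 CPM in the left eye of mild animal 4. Cxcl16 was at 360, 213 and 248 CPM against 207, 124, 133 and 134 (0.87 ± 0.35). Cxcl13, a B-cell attractant outside that list, was at 398, 279 and 108 CPM against 45.9, 84.6, 21.2 and 86.7 (2.13 ± 0.56). The cytokine gene Il1b was at 108, 108 and 32.4 CPM against 10.9, 18.8, 17.2 and 54.9 (1.70 ± 0.70), with overlap. Of 26 interferon response genes 1 was higher, where 1.61% of all genes were. Of 21 class I and 9 class II presentation genes none passed the threshold in either direction. The medians of these 3 lists were 0.44, 0.09 and -0.07. Each of these 3 medians turned its sign under at least 1 alternative. With the animal as a block 4 of the class II genes were higher, where 2.62% of all genes were. Heat shock chaperones split, with 2 of 18 tested higher at the threshold (1.61% of all genes were) and 1 lower (2.43%). Hspd1, of mitochondria, was at 158, 68.6 and 190 CPM against 40.7, 61.8, 93.6 and 43.2 (1.21 ± 0.49). Hspa1a, induced by stress, was at 17.6, 37.4 and 89.0 CPM against 174, 179, 62.9 and 166 (-1.59 ± 0.60). In the oxidative stress and iron list, with 23 tested, Prdx1 (1.02 ± 0.40) and Fth1 were higher, where 1.61% of all genes were. Slc40a1, the iron exporter ferroportin, was lower (-1.66 ± 0.65), where 2.43% of all genes were.

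The genes of smallest p that lay lower in moderate sums were mostly outside these lists. Bcl9 (chr3:97203662-97297917) is a co-factor of beta-catenin in Wnt signalling. It stood at 7.83, 10.9, 3.06 and 8.40 CPM in the moderate retinas, against 62.1, 85.6 and 35 in severe and 44.2, 44.5 and 57.9 in mild ones. All 4 moderate retinas lay below the lowest of the 6 others, and the sums differed by -2.68 ± 0.68 (DESeq2 adjusted p = 0.002). Reep3, a protein of the endoplasmic reticulum, was at 17.7, 40.7, 45.1 and 21.5 CPM against 54.9 to 150 (-1.95 ± 0.51). Chd2, a chromatin remodeller, was at 43.9, 31.1, 97.8 and 35.6 CPM against 98.9 to 147 (-1.51 ± 0.41), with the left eye of moderate animal 2 next to the lowest mild eye. Snx13, a sorting nexin, was at 16.7, 13, 23.2 and 10.2 CPM against 30.2 to 87.9 (-2.06 ± 0.61). Ep300, a histone acetyltransferase named after its values were seen, was at 75.9, 89.3, 48.0 and 59.3 CPM against 92.9 to 350, where the edges nearly met. Mef2c, a microglial transcription factor of the homeostatic list, was also named after its values were seen. It was at 289, 320, 389 and 392 CPM against 407 to 595, again a narrow gap (-0.52 ± 0.30, not past the unadjusted threshold). Gamt, an enzyme of creatine synthesis, was named in the same way. It had 0 counts in all 4 moderate retinas and 5.18 to 34.5 CPM in the others, at least 203-fold lower by the floor of 3 counts over the group. Hist2h2aa1 and A130071D04Rik also had all 4 moderate retinas below the 6 others (-1.73 ± 0.48 and -1.83 ± 0.52), and Hist2h2aa1 shares reads with near-identical histone genes.

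The other genes of smallest p overlapped between retinas. Csmd3 and Cd180, a Toll-like receptor homologue, gave -1.46 ± 0.39 and -1.43 ± 0.39. Themis2 gave -2.06 ± 0.59 and Slc46a3 -1.65 ± 0.49. Of the higher genes, Ddx21, an RNA helicase of the nucleolus, was at 43.0, 62.0 and 113 CPM against 5.83, 13.3, 14.4 and 11.0 (2.70 ± 0.68). Gm28661 and Gm10925 are annotated as unprocessed pseudogenes, whose reads can be shared with near-identical copies. Gm28661 had 0 counts in the 3 moderate sums and 170, 4.67, 4.77 and 84.5 CPM in the others.

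Set against each end of the scale separately, the rod, homeostatic, immediate early and ribosomal lists had the same sign. The median of the rod list was 2.88 for moderate minus mild, 2.46 for moderate minus severe and 0.22 for severe minus mild. For homeostatic genes it was -0.53, -0.52 and 0.06, and for immediate early genes -0.69, -0.98 and 0.27. For ribosomal proteins it was 0.70, 0.95 and -0.24. Of the 19 rod genes, 4 passed an unadjusted p of 0.05 for severe minus mild, where 407 of 12019 genes did. Gnat1 was 1 of the 4, at 1.63, beside 1.34 for moderate minus severe. The contrasts of moderate with mild and of moderate with severe share the moderate sums and are not independent. Neither passed an adjusted p of 0.05 for any gene in edgeR. At an unadjusted p under 0.05 they gave 600 and 396 genes, and severe minus mild, with 2 sums against 2, gave 407. All 3 counts are out of 12019 genes tested, and none is above what this threshold itself passes where no gene differs. The counts are therefore not read as differences between grades.

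**Figure D5:**
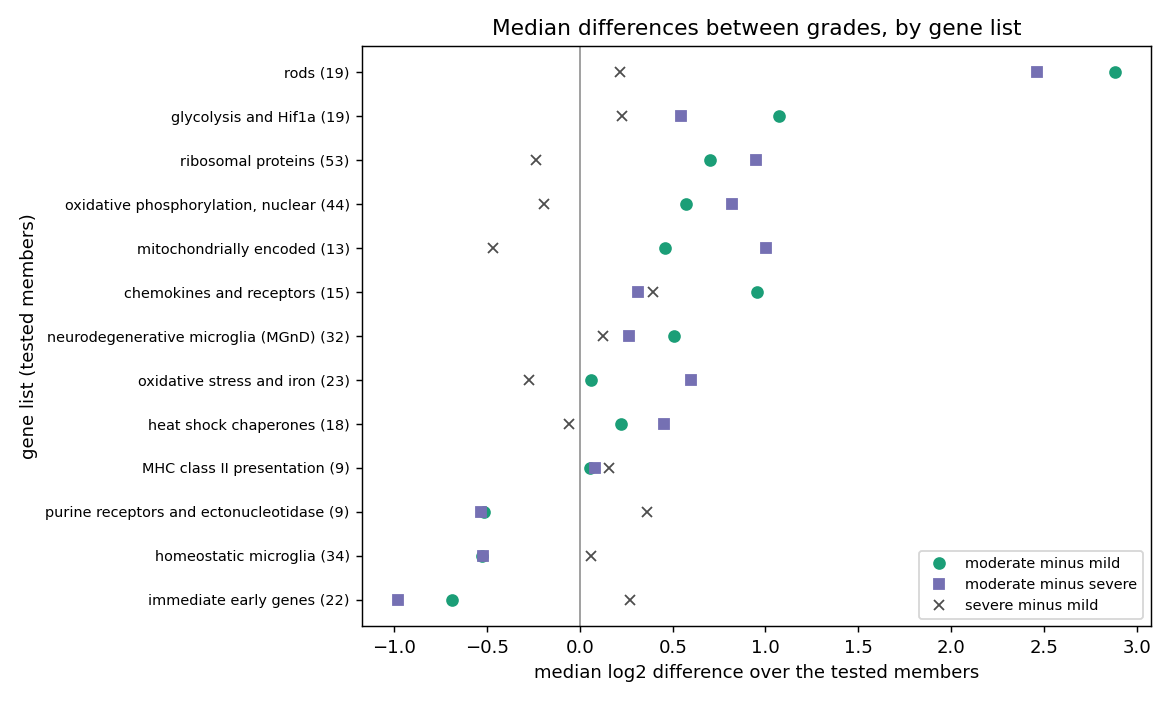
Median log2 difference of 13 gene lists over their tested members (number in brackets), for moderate minus mild, moderate minus severe and severe minus mild. Rods lie at 2.88, 2.46 and 0.22, homeostatic genes at -0.53, -0.52 and 0.06.

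Animals 1 and 5 had 1 moderate eye each and a fellow eye of another grade, which sets the grades side by side within 1 animal. In animal 1, moderate minus severe, the rod list had a median log2 difference of 3.10, with 18 of 19 members positive. In animal 5, moderate minus mild, it was 2.88, with 19 of 19 positive. The 12 border macrophage markers summed to 463 CPM in the moderate and 26.0 in the severe eye of animal 1, and to 153 in the moderate and 27.5 in the mild eye of animal 5. Glycolysis gave 0.72 and 1.37, and ribosomal proteins 1.5 and 1.1. Homeostatic genes gave -0.40 and -0.86, and immediate early genes -0.86 and -1.17. The median of all genes was -0.06 and 0.14. Both pairs thus had the direction of the sums in each of these lists. The eyes compared are part of those sums, so this is not a separate result. Not every list behaved so. Heat shock chaperones gave -0.34 in animal 1 and 0.74 in animal 5 (0.32 in the sums). MHC class II genes gave 0.90 and 0.59 (-0.07 in the sums). The third moderate animal, animal 2, had both eyes graded moderate, and its eyes differed from each other in rods (2972 and 325 CPM) by more than the fellow eyes of different grade in animal 1 or animal 5 did by ratio.

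The retinas outside this comparison show how far these levels range. Summed rod markers ran from 285 to 24344 CPM (median 774) in 12-month retinas of the control strain DBA/2J Gpnmb+ and from 247 to 2689 CPM (median 561) in 6-month DBA/2J retinas. The highest moderate eye, at 6640, thus lay within the range of the control strain. Msr1 reached 22.7 CPM in Gpnmb+ and 10.5 in 6-month retinas, below 2 of the 4 moderate eyes. C3 reached 15.8 and 4.34 CPM, below all 4 moderate eyes. Other such genes reached the moderate levels only at the upper end of the control strain. Cybb reached 177 CPM and Mrc1 99.8 CPM in Gpnmb+, above all 4 moderate eyes, but their Gpnmb+ medians were 0.292 and 0.571 CPM. Cryab reached 26.2 CPM in Gpnmb+ (median 0), within the moderate range of 12.9 to 29.2. P2ry12 ran from 1452 to 3431 CPM in Gpnmb+ and from 2835 to 3534 CPM in 6-month retinas, above the moderate eyes of animals 1 and 5. The summed level of the homeostatic list, which abundant members weigh most, did not separate moderate eyes from the control strain. The list summed to 53449.5 to 79811.5 CPM (median 65656) in Gpnmb+ and 49032 to 74502 CPM (median 63972) in moderate retinas. In 6-month retinas it summed to 81642 to 91006 CPM. Bcl9 ran from 0 to 501 CPM in Gpnmb+ and from 39.3 to 74.9 in 6-month retinas. Eno1 ran from 28.5 to 552 CPM (median 137) in Gpnmb+ and from 102 to 130 CPM in 6-month retinas.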

How the data were processed

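RNA of microglia sorted from each retina was sequenced. Per gene, the deposited tables give expected counts, which need not be whole, per the file headers. DESeq2 1.30.1, Salmon 1.4.0, R 4.0.3 and mm10 stand in the submitters' processing notes, without their roles. Annotation release and filters: not given in the sources used here. A deposited table with 24 columns of normalized per-sample values was not used. Of 47729 gene IDs, 47224 matched a symbol in the GRCm38 annotation, used for coordinates. Shared reads make paralogs and pseudogenes uncertain.

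Expected counts were rounded and summed over eyes of 1 animal with the same grade (7 sums). Among 45 pairs of retinas chi-square was at least 81.8 times its degrees of freedom, so none was a duplicate. Genes were tested two-sided with edgeR 4.0.16 in R 4.3.3 (quasi-likelihood test, TMM, filterByExpr at minimum count 10 and total 15). P-values were adjusted by Benjamini and Hochberg over 12019 genes, with a threshold of 0.05. SE are of edgeR's log2 difference. Alternatives used DESeq2 1.42.0 and limma 3.58.1. The script was tested on simulated counts. Eyes of 1 animal pair animals 1 and 5 by design; the correlation of their deviations from the group means was 0.01 and 0.09 over 6728 genes, and the block leaves 1 residual degree of freedom. Sums are separate animals within a grade, but animals 1 and 5 stand on both sides and were taken as independent. Within an animal, eyes were compared with a pseudocount of 1 CPM.

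The comparison, the 39 gene lists and the tests were chosen with earlier results of these data known. Named were Gpnmb and Tyrp1; 12 genes per direction by smallest p among genes of average log2 CPM 4 or more, since none was called; a fixed set of 13 genes; and, of the 8 pathway lists with the largest share past the unadjusted threshold, the 4 members of smallest p, with the top members of marker lists. The lists of oxidative phosphorylation, mitochondrially encoded, cell cycle, MGnD, complement and interferon genes, rod genes beyond the top member, and genes that the text names outside these parts of the rule were added after their values were seen. Some genes that the rule names are not reported here.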

Additional observations from a re-analysis of the deposited data

Results flagged for a closer look

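A value was set aside where the highest or lowest of 4 to 6 samples of a group stood far from the rest, by Dixon's criterion. Of 65 groups of values checked, 10 met it, where chance alone gives about 1 in 20. Eyes of 1 animal are not independent, so the retina values are a description.

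Most of them are the left eye of mild animal 4, the smallest library, among the 6 mild or severe retinas. Its ribosomal protein genes summed to 32684 CPM (the rest 9772 to 15798). Its mitochondrially encoded genes summed to 18112 CPM (the rest 6747 to 8597), and its nuclear oxidative phosphorylation genes to 5774 CPM (the rest 2144 to 3352). Its defining microglia genes summed to 11822 CPM (the rest 26875 to 32791). The same eye also stood out in homeostatic genes, at 109677 CPM (the rest 76465 to 88262), and in oxidative stress and iron genes, at 9332 CPM (the rest 3845 to 4961).

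In the 4 moderate retinas the right eye of animal 1 stood apart in oxidative stress and iron genes, at 10146 CPM (the rest 5302 to 6088). Among mild or severe retinas the right eye of severe animal 3 stood apart in rods, at 1834 CPM (the rest 458 to 915). Among mild or severe sums, mild animal 4 stood apart in Gngt1, at 56.9 CPM (the rest 22.8 to 28.3), and severe animal 3 in Msr1, at 0.158 CPM where the other 3 were at 0.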

How the results depend on the processing

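No gene was called at an adjusted p of 0.05 under the alternatives run, except with DESeq2 (70 genes) and with no filter on low counts (24). At an unadjusted p under 0.05, 486 genes passed. DESeq2 gave 775, no filter 1828, each retina as a replicate 270, a random animal effect over retinas 869, all 17 sums in 1 fit 963 and sample quality weights 864. Leaving out 1 sum or animal gave 354 to 706. With the replicate block (the animal number), 586 genes passed over the 7 sums and 548 over the 10 retinas, none called.

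Genes whose sums did not overlap numbered 843, and 145 with each retina as a replicate. Leaving out 1 sum or animal gave 1253 to 2471, and leaving out the 2 smallest libraries, chosen after seeing the data, gave 1723; with fewer sums more genes separate. The sign of a list's median differed from that reported in 81 of 962 pairs of a list and an alternative. Of the lists whose medians are given or plotted, heat shock chaperones were at -0.34 and -0.25 without the moderate or both sums of animal 5. Without moderate animal 1, cell cycle genes were at -0.06 and oxidative stress and iron at -0.18, and without both its sums at -0.17 and -0.13, with mitochondrially encoded genes at -0.01. Without the 2 smallest libraries cell cycle genes were at -0.06 and oxidative stress and iron at -0.14 (-0.07 with each retina as a replicate). Interferon genes were at -0.21 without moderate animal 2. Class I genes turned negative in 7 alternatives (to -0.28), and class II genes positive in 8 (to 0.40, with the block over retinas).

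Of single genes, the log2 difference of Clec7a was -0.91 and -0.95 with the replicate block over 7 sums and 10 retinas, -0.55 without moderate animal 5 and -0.74 to 1.75 over all fits that left out 1 sum or animal. That of Trem2 was 0.04 without mild animal 4, 0.05 without animal 5 and -0.44 to 0.14 over those fits, the highest without moderate animal 5. Over the same fits Cnga1 ranged from -0.29 (without moderate animal 2) to 1.62, and Rp1 from -0.45 (without animal 1) to 2.75, with -0.08 without moderate animal 1. Cnga1 reached 3.18 with sample quality weights and Rp1 5.65 for moderate minus severe, and Rp1 was -0.27 without the 2 smallest libraries. The cause was not tested. Depth limits genes near the floor of 3 counts, 1.76 CPM in the smallest library.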
